A study of Mus musculus with 9 samples.

Results

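This section describes 10 mouse genes of the NF-kB pathway in brain myeloid cells. They encode the 5 subunits of the NF-kB transcription factors (Nfkb1, Nfkb2, Rela, Relb and Rel), 4 proteins that restrain or modify them (Nfkbia, Nfkbiz, Tnfaip3 and Bcl3) and the kinase Ikbkb. The genes were taken by name from the 36528 gene numbers in the count tables, and all 10 were found. Cells carrying Cd11b, an integrin chain of microglia and other myeloid cells, had been sorted from brain at an age of 11 to 12 months and their RNA sequenced. Wild-type libraries came from non-transgenic littermates (2 females, numbered 1 and 2, and 2 males, 3 and 4). Tau-P301L libraries came from mice transgenic for tau with the P301L mutation (2 females, 1 and 2, and 3 males, 3 to 5). The promoter that drives the transgene is not given in the sources used here, and no label ties each library to its own animal. The p-values therefore speak only of the spread between these samples, which may be technical.

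NF-kB dimers wait in the cytoplasm, held by inhibitors of the I-kappa-B family. Signals from Toll-like, interleukin and tumour necrosis factor receptors activate the I-kappa-B kinase, whose catalytic subunit Ikbkb marks the inhibitor Nfkbia for destruction and frees the dimers to enter the nucleus. There they switch on inflammatory genes together with Nfkbia and Tnfaip3, which close the loop. A second route, through the kinase Map3k14, processes the Nfkb2 precursor and acts with Relb. In microglia these routes govern cytokine and chemokine release. RNA levels do not show where the proteins are or whether the dimers are active.

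Between 1494727 and 3793606 reads were counted in genes per library. A gene with 3 reads had 0.791 to 2.01 CPM (counts scaled to a common library size), depending on the library and before TMM scaling. The shallowest was Tau-P301L library 5. The sort was checked on 10 microglial markers, whose summed level was 10548 to 14545 CPM in wild-type and 8501 to 15118 CPM in Tau-P301L libraries. The estimate was above 0 for 1 of these markers and below 0 for the other 9. P2ry12, a purine receptor, differed by 0.04 on the log2 scale, Cx3cr1, the fractalkine receptor, by -0.20, and Tmem119, a microglial membrane protein, by -0.51 (edgeR adjusted p = 0.981, 0.933 and 0.789). Markers of other cells were present too. Summed levels of 8 astrocyte genes were 317 to 419 CPM in wild-type libraries and 317 to 675 CPM in Tau-P301L libraries, of which libraries 3 to 5 lay above every wild-type library. Summed levels of 8 oligodendrocyte genes were 513 to 715 CPM in wild-type and 329 to 1445 CPM in Tau-P301L libraries, the highest in library 5. Summed levels of 8 neutrophil genes were 0 to 60.1 CPM in wild-type libraries, 151 CPM in Tau-P301L library 4 and 0.953 to 4.89 CPM in the other Tau-P301L libraries. Over 15 library measures compared between the genotypes, the smallest exact permutation p (two-sided) was 0.0873, for depth, and 0.762 after Benjamini-Hochberg adjustment.

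No gene of the set differed between the genotypes beyond the spread between libraries. Of the 9 that passed the low-count filter, 0 passed an adjusted p of 0.05 in edgeR's quasi-likelihood test, against 0.00816% of the 12250 genes tested. DESeq2 and limma-voom also called 0. None had an unadjusted p under 0.05, against 6.35% of tested genes, and for none did the groups separate completely, against 2.48%. Estimates were higher in Tau-P301L for 4 and lower for 5, where 49.9% of all tested genes were higher and 50.1% lower. The median log2 difference of the 9 was -0.03, beside 0.00 for all tested genes. The median size of the difference, without regard to sign, was 0.20 beside 0.35, which is not matched for level. Of the 9 genes 8 had a mean of at least 10 CPM, against 7753 of the 12250 tested. Less precise estimates are larger in size, and the median SE over all tested genes was 0.46. Bcl3 was too low to test. In these bulk samples fewer cells of a type and less RNA per cell cannot be told apart.

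**Figure D1:**
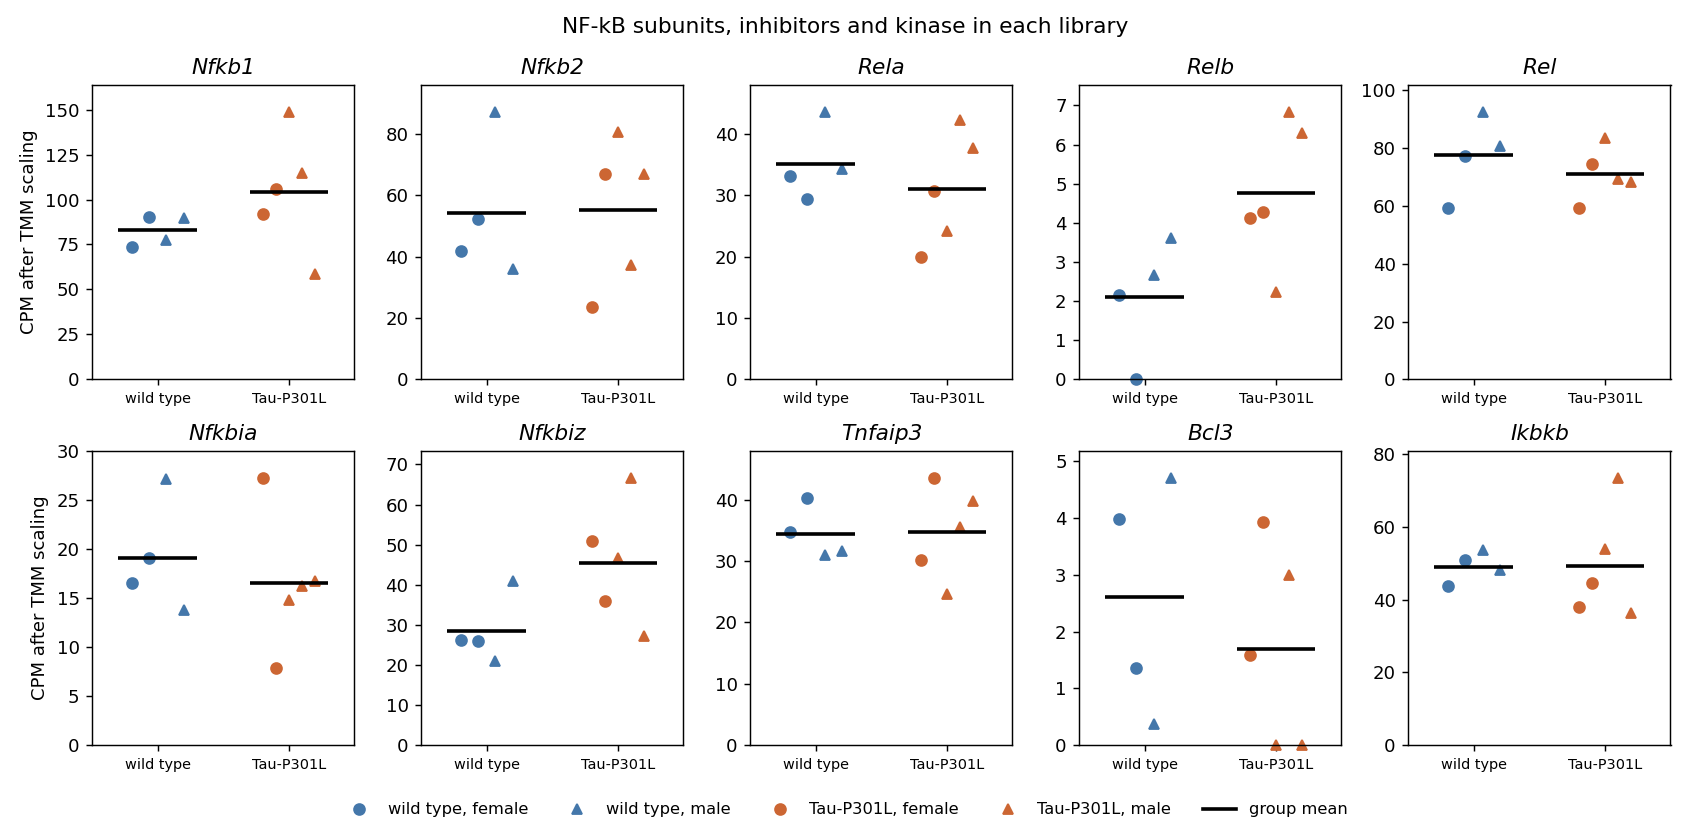
CPM after TMM scaling (vertical axis, linear from 0) of the 10 NF-kB genes in each wild-type (blue) and Tau-P301L (orange) library. Circles are females, triangles are males and bars are group means. The groups overlap in every panel, and among the 9 tested genes Nfkbiz and Relb have the largest ratio of means.

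Levels per gene length were compared within libraries from the deposited RPKM values (reads scaled by gene length and library size). Rel, a subunit typical of lymphoid and myeloid cells, was highest at 6.95 ± 1.09 RPKM (SD, n = 9), followed by Nfkb1, which encodes the precursor of a DNA-binding subunit, at 5.55 ± 1.60 RPKM. Rel lay above Nfkb1 in 7 of 9 libraries, and Nfkb1 above the next gene, Nfkb2, in 9 of 9. These 2 subunits headed the order, with Rel first in most libraries but not all.

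The middle of the order was not resolved. Mean levels per length were 2.81 RPKM for Nfkb2, 2.73 for Nfkbia, 2.73 for Rela, 2.61 for Ikbkb and 2.38 for Nfkbiz. Each lay above the next in only 4 or 5 of 9 libraries, so neighbours in this order did not differ beyond their spread. Tnfaip3 followed at 1.74 ± 0.293 RPKM (SD, n = 9), below Nfkbiz in 5 of 9 libraries, and lay above Relb in all 9. Relb and Bcl3 were last at 0.334 ± 0.200 and 0.267 ± 0.232 RPKM (SD, n = 9), in an order that held in 5 of 9 libraries. Rela is the main activating subunit of the classical route, and its mean per length stood below that of Rel.

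**Figure D2:**
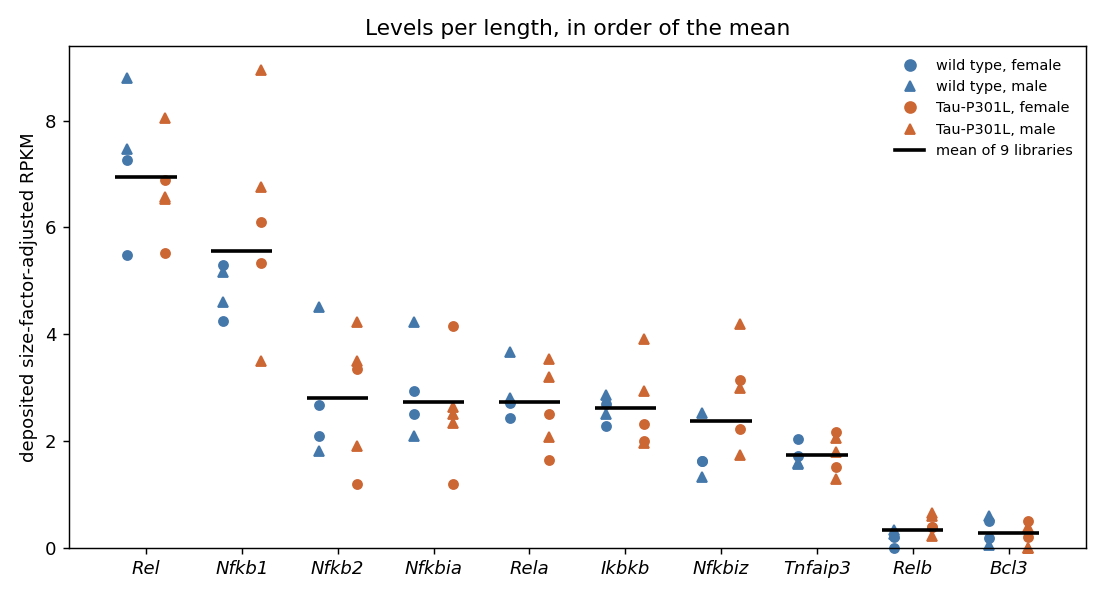
Deposited size-factor-adjusted RPKM (vertical axis, linear from 0) of the NF-kB genes, ordered by the mean of 9 libraries (black bars), with wild-type libraries in blue and Tau-P301L libraries in orange. The means of Rel and Nfkb1 stand apart at the top, although single values of Nfkb1 (from 3.51 RPKM) overlap those of Nfkb2 (up to 4.51 RPKM). The 5 genes with means between 2.38 and 2.81 RPKM overlap, and Relb and Bcl3 lie near 0.

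The genes also differed in how steady they were. Rel varied least, with a coefficient of variation of 15.0% of its CPM over the 9 libraries, where counting error alone gives 7.31%, and Tnfaip3 followed with 17.1% against 10.7%. Nfkb2 varied most among the well-counted genes, with 40.0% against 8.71%, then Nfkbiz with 39.1% against 10.2% and Nfkbia with 35.0% against 14.9%. Relb and Bcl3 had 59.5% and 87.4%, of which counting alone gives 34.7% and 39.8%. In every gene the spread between libraries exceeded that of counting alone.

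Among the subunits, Rela stood at 33.1, 29.3, 43.6 and 34.3 CPM in wild-type libraries 1 to 4 and at 20.0, 30.7, 24.2, 42.3 and 37.7 CPM in Tau-P301L libraries 1 to 5. Levels in the groups overlapped, with Tau-P301L libraries 1 and 3 below all wild-type libraries. The log2 difference of Rela was -0.23 (SE 0.32, 95% interval -0.90 to 0.45, edgeR adjusted p = 0.922). All differences are given as Tau-P301L over wild type on the log2 scale.

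Rel stood at 59.2, 77.4, 92.6 and 80.9 CPM in wild-type and at 59.4, 74.6, 83.4, 69.3 and 68.4 CPM in Tau-P301L libraries. All 5 Tau-P301L values fell inside the wild-type range. Its log2 difference of -0.14 (SE 0.25, 95% interval -0.67 to 0.39, edgeR adjusted p = 0.939) had the narrowest interval of the set.

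Nfkb1 stood at 73.6, 90.4, 77.7 and 89.7 CPM in wild-type and at 92.1, 106, 149, 115 and 58.7 CPM in Tau-P301L libraries. Libraries 1 to 4 of the Tau-P301L group lay above every wild-type library and library 5 below every one. The log2 difference was 0.32 (SE 0.28, 95% interval -0.25 to 0.90, edgeR adjusted p = 0.850). Library 5 was also the shallowest and the highest in oligodendrocyte genes, and the part of either in its low value was not tested. Without it the difference was 0.47, and without Tau-P301L library 3, the highest, it was 0.17.

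Nfkb2 encodes the precursor that the second route processes. Its values were 41.7, 52.2, 87.2 and 36 CPM in wild-type and 23.5, 66.8, 80.7, 37.2 and 67.0 CPM in Tau-P301L libraries, a range as wide in one group as in the other. The log2 difference was -0.03 (SE 0.36, 95% interval -0.77 to 0.72, edgeR adjusted p = 0.992). Nfkb2 lies on chromosome 19 (GRCm38, 46300994 to 46312400) and overlaps the long noncoding gene 4833438C02Rik, which had 1067 reads over the 9 libraries, and Psd, which had 150. Whether counting used strand is not given in the sources, and without it reads from the shared stretches cannot be told apart.

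Relb, the partner of Nfkb2 in the second route, was near the depth limit, with 7, 0, 7 and 13 reads in wild-type and 13, 12, 5, 16 and 9 reads in Tau-P301L libraries. In CPM it stood at 2.15, 0, 2.68 and 3.60 against 4.13, 4.28, 2.24, 6.84 and 6.28. The count of 0 in wild-type library 2 allows up to 1.02 CPM. Relb reached the level of the low-count filter in 1 of 4 wild-type and 4 of 5 Tau-P301L libraries, so it was tested only because of its level in Tau-P301L, and its direction is no support for a difference. Tau-P301L libraries 1, 2, 4 and 5 lay above all wild-type libraries and library 3 among them. The log2 difference was the largest estimate of the set and the least certain, at 1.20 (SE 0.82, 95% interval -0.52 to 2.92, edgeR adjusted p = 0.812). Without wild-type library 2 the log2 difference of Relb was 0.79.

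Ikbkb, the kinase that marks Nfkbia for destruction, stood at 43.8, 50.8, 53.6 and 48.2 CPM in wild-type and at 38.1, 44.6, 53.8, 73.5 and 36.3 CPM in Tau-P301L libraries. The wild-type values lay inside the wider Tau-P301L range. The log2 difference was -0.03 (SE 0.29, 95% interval -0.64 to 0.58, edgeR adjusted p = 0.990), and both group means were near 49 CPM, at 49.1 ± 4.14 (SD, n = 4) and 49.3 ± 15.2 (SD, n = 5).

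The inhibitors Nfkbia and Tnfaip3 are themselves switched on by NF-kB, through binding sites close to their start sites, which is why their promoter letters are shown here. RefSeq promoter windows (GRCm38.p6) covered 6 of the 10 genes, namely Rela, Rel, Nfkb2, Nfkbia, Tnfaip3 and Bcl3, while Nfkb1, Relb, Nfkbiz and Ikbkb were not analysed here in this way. The 250 bases before each of their 9 start sites were searched on both strands for the kB consensus, the 10-base motif of NF-kB dimers. It occurred for 4 of the 6 genes (Nfkbia, Tnfaip3, Rel and Nfkb2), in 6 of their 9 windows, and in 3.90% of all 32851 promoter windows of the same length. A match describes the letters, not a bound site.

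For each window the match nearest the start site is shown within 30 bases, written on the strand of the gene, 5′ to 3′, with the matched 10 bases in capitals and positions counted from the start site. Those of Nfkbia, Tnfaip3 and Rel and the second of Nfkb2 match on the opposite strand, so the motif reads there in reverse complement.
Nfkbia, chr12:55492657-55492686, match at -29 to -20: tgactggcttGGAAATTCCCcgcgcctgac
Tnfaip3, chr10:19015403-19015432, match at -12 to -3: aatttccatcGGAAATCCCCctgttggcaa
Rel, chr11:23771041-23771070, match at -91 to -82: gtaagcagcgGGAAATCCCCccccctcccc
Nfkb2, chr19:46304716-46304745, match at -11 to -2 from the start at 46304737: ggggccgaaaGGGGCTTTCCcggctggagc
Nfkb2, chr19:46305449-46305478, match at -236 to -227 from the start at 46305695: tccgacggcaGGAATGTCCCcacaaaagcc
Nfkb2, chr19:46305695-46305724, match at -225 to -216 from the start at 46305930: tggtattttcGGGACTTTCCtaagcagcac
The matches of Nfkbia and Tnfaip3 lie within 30 bases of the start, as does the first of Nfkb2, and Rel and the other Nfkb2 matches lie farther away. Overlapping or more distant matches of Nfkb2, Rel and Tnfaip3 are not printed.

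For Nfkbia, the classical feedback inhibitor, the whole 250 bases before the start site (chr12:55492648-55492897, minus strand) place the match near the start of transcription.
Nfkbia upstream: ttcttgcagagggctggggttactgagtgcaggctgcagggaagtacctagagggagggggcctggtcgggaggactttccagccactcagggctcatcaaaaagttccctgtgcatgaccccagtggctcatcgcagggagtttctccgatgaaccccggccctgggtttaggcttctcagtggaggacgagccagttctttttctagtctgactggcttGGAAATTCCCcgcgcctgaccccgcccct

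Nfkbia, which encodes the classical inhibitor, stood at 16.6, 19.1, 27.2 and 13.8 CPM in wild-type and at 27.3, 7.86, 14.8, 16.2 and 16.8 CPM in Tau-P301L libraries. Both the highest and the lowest value of all 9 libraries belonged to Tau-P301L females, library 1 and library 2. The log2 difference was -0.20 (SE 0.42, 95% interval -1.08 to 0.68, edgeR adjusted p = 0.942). Those 2 libraries set much of it, since it was -0.64 without library 1 and 0.01 without library 2, and it was 0.07 without wild-type library 3. At 22 to 86 reads per library, ratios from 0.472 to 1.60 in Nfkbia lie within the interval.

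Tnfaip3, which encodes a ubiquitin-editing enzyme that shuts off signalling upstream of the kinase, was among the steadiest genes. It stood at 34.6, 40.2, 31.0 and 31.6 CPM in wild-type and at 30.2, 43.6, 24.7, 35.5 and 39.8 CPM in Tau-P301L libraries. The group means were 34.4 ± 4.23 CPM (SD, n = 4) and 34.7 ± 7.52 CPM (SD, n = 5). The log2 difference of Tnfaip3 was 0.04 (SE 0.31, 95% interval -0.62 to 0.69, edgeR adjusted p = 0.988).

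Nfkbiz encodes an atypical nuclear I-kappa-B protein that helps NF-kB switch on a subset of its targets. It had the smallest p of the set. Its values were 26.4, 25.9, 21.0 and 41.0 CPM in wild-type and 50.8, 36.1, 46.6, 66.7 and 27.2 CPM in Tau-P301L libraries. Tau-P301L libraries 1, 3 and 4 lay above all wild-type libraries, and libraries 2 and 5 lay below wild-type library 4, which was the highest of its group. The group means were 28.6 ± 8.62 CPM (SD, n = 4) and 45.5 ± 15.0 CPM (SD, n = 5). The log2 difference was 0.66 (SE 0.34, 95% interval -0.06 to 1.37). In edgeR its unadjusted p was 0.0686 and its adjusted p 0.789. Tau-P301L library 4, the highest, was also the library with 151 CPM of neutrophil genes, whose part in its Nfkbiz level was not tested, and without it the difference was 0.50.

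Bcl3, another nuclear I-kappa-B protein, which partners dimers without an activating subunit, had too few reads to test. Its reads numbered 13, 4, 1 and 17 in wild-type and 5, 11, 0, 7 and 0 in Tau-P301L libraries. The counts of 0 in Tau-P301L libraries 3 and 5 allow up to 1.35 and 2.09 CPM after the same scaling, which overlaps the wild-type levels of 0.383 to 4.71 CPM. A difference in Bcl3 was not detectable at this depth. Bcl3 also overlaps the long noncoding gene Gm16174, which had 22 reads over the 9 libraries beside 58 for Bcl3. As for Nfkb2, reads from the shared stretch cannot be told apart without knowing whether counting used strand.

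**Figure D3:**
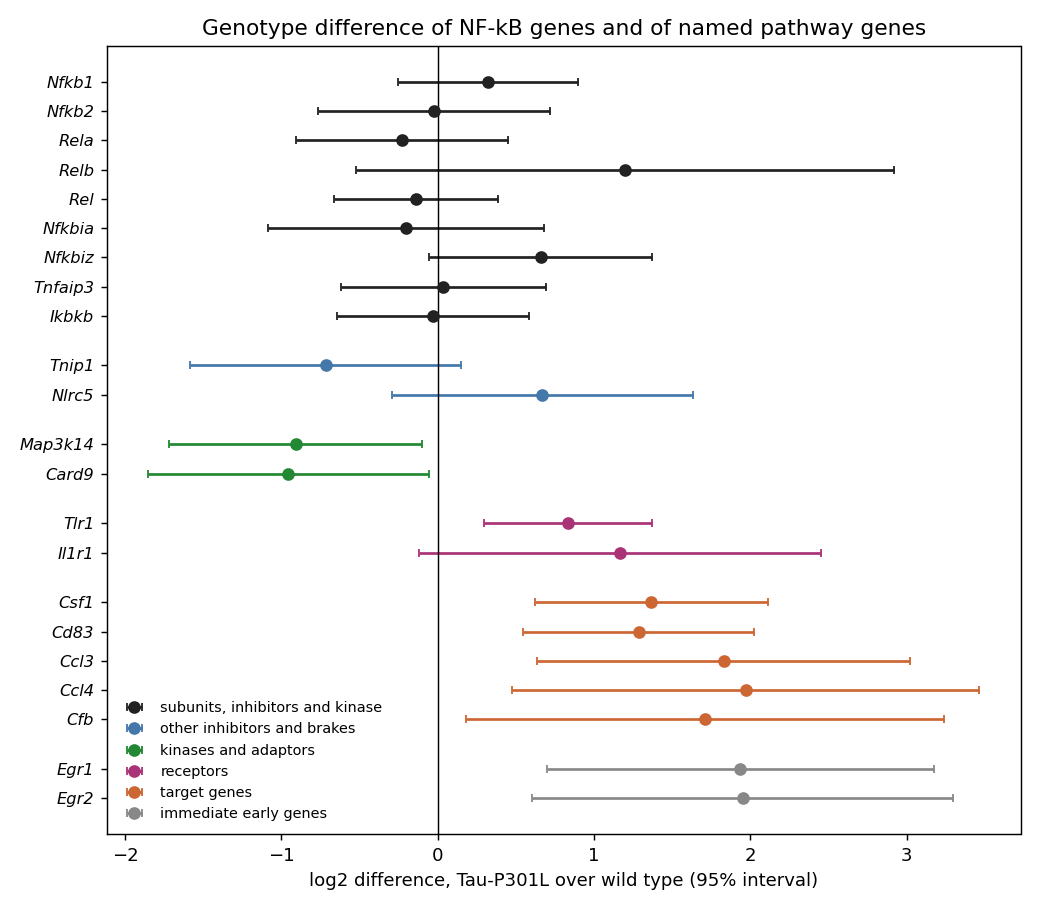
Log2 difference of Tau-P301L over wild type (horizontal axis) with its 95% interval from the edgeR fit of 4 wild-type and 5 Tau-P301L libraries, for the 9 tested NF-kB genes (black) and the pathway genes named by rule (colours by list). All 9 NF-kB intervals include 0. Those of Csf1, Cd83, Ccl3, Ccl4, Cfb, Tlr1, Egr1, Egr2, Map3k14 and Card9 do not, before any adjustment over genes. These genes were named for an unadjusted p under 0.05 in the same fit, so their intervals exclude 0 by selection. The NF-kB genes are shown whatever their p, so the sets cannot be compared by their intervals. Ccl4, Cfb and Egr2 also passed the low-count filter through Tau-P301L libraries alone.

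The genotype difference was also compared between the sexes. In a fit with the product of genotype and sex, 0 of the 10 genes passed 0.05 in edgeR, adjusted or unadjusted, where 0% of 13302 genes passed adjusted and 3.95% unadjusted. DESeq2 called 0 of the 10 as well. The smallest unadjusted p of the set was 0.480, for Relb. Nfkbiz had log2 differences of 0.73 in females alone and 0.60 in males alone, and Relb 1.90 and 0.69. The difference between the sexes in Relb was -1.22 and hung on single wild-type females, since it was -0.27 without library 2, which had 0 reads, and -5.82 without library 1. With 2 or 3 libraries per genotype and sex the intervals were wide: for Nfkbiz the difference between the sexes was -0.13 (95% interval -1.61 to 1.34).

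Whether the feedback genes varied together over the libraries was examined for 5 pairs on log2 CPM with two-sided tests, in which all points share the scaling of their library. Both genotypes and both sexes were pooled, without a term for either. Nfkbia and Nfkbiz had a Pearson r of -0.18 and a Spearman rho of -0.30 (n = 9, exact permutation p = 0.644 and 0.437). Nfkbia and Tnfaip3 had r = -0.41 and rho = -0.27 (n = 9, exact permutation p = 0.272 and 0.493), and Nfkbiz and Tnfaip3 r = -0.30 and rho = -0.28 (n = 9, exact permutation p = 0.428 and 0.463). All 3 estimates between the feedback genes were negative, and none differed from 0 by its test.

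The other pairs each include a precursor gene. Nfkbia and Nfkb1 had r = -0.31 and rho = -0.37 (n = 9, exact permutation p = 0.416 and 0.336), and Nfkb2 and Relb r = -0.15 and rho = -0.18 (n = 9, exact permutation p = 0.717 and 0.644). Relb had only 0 to 16 reads per library, so counting noise could hide a relation in the last pair. After adjustment over the 5 pairs the smallest p was 0.713 for r and 0.617 for rho (exact permutation tests). Without the 2 libraries farthest from the median of the first gene, r was -0.66 for Nfkbia and Nfkbiz, 0.15 for Nfkbia and Tnfaip3, -0.70 for Nfkbiz and Tnfaip3, -0.34 for Nfkbia and Nfkb1 and -0.07 for Nfkb2 and Relb (n = 7, exact permutation p = 0.0976, 0.738, 0.0827, 0.452 and 0.904). The r of Nfkbia and Tnfaip3 depended on single libraries: it was -0.03 without Tau-P301L library 2, -0.33 without library 1 and -0.69 without library 3. Relations with Fos, an immediate early gene, were not computed, because Fos had 0 to 5 reads per library.

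Other genes of the pathway were read from lists of brakes, signalling proteins, receptors, targets and immediate early genes, and none of their members passed an adjusted p of 0.05 in edgeR. Among 21 further inhibitors and brakes, 20 were tested, with 12 higher and 8 lower estimates in Tau-P301L, 0 with an unadjusted p under 0.05 and a median of 0.05. Tnip1, a partner of Tnfaip3, had the smallest p, with mean CPM of 17.0 ± 6.15 without and 10.3 ± 2.28 with the transgene (SD, n = 4 and 5), a log2 difference of -0.72 (SE 0.42, edgeR adjusted p = 0.789). Nlrc5, a regulator of MHC class I genes that also restrains NF-kB, was next at 0.67 (SE 0.46, edgeR adjusted p = 0.813), and at 0.42 without Tau-P301L library 4.

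Of 28 kinases and adaptors 25 were tested, with 10 higher and 15 lower estimates and a median of -0.11. Unadjusted p values under 0.05 belonged to 2 of them, both lower, where 2.78% of all tested genes were lower at that level. Map3k14, the kinase that starts the second route, stood at 29.4, 27.6, 44.8 and 25.8 CPM in wild-type and at 18.7, 13.6, 8.07, 25.7 and 19.6 CPM in Tau-P301L libraries. Every Tau-P301L library lay below every wild-type library, as for 1.18% of tested genes, although Tau-P301L library 4 and wild-type library 4 nearly met. Its log2 difference was -0.91 (SE 0.39), with an unadjusted p of 0.0293 and an adjusted p of 0.772 in edgeR's quasi-likelihood test. Card9, an adaptor of C-type lectin receptors, stood at 44.0 ± 9.76 and 22.3 ± 13.4 CPM (SD, n = 4 and 5; log2 difference -0.95, SE 0.43, edgeR adjusted p = 0.776). Its groups overlapped, with 38.9 CPM in Tau-P301L library 4 and 32.1 CPM in wild-type library 4. The lowest value was 4.93 CPM in Tau-P301L library 3, and without both Tau-P301L libraries 3 and 5 the difference of Card9 was -0.545.

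Receptors and their first adaptors gave 23 tested genes of 26, with 9 higher and 14 lower estimates and a median of -0.07. An unadjusted p under 0.05 belonged to 1 of them, higher, a share near the 3.57% of all tested genes. Tlr1, a partner of Tlr2 in the sensing of bacterial lipoproteins, stood at 52.1 to 67.8 CPM in wild-type and 83.8 to 130.8 CPM in Tau-P301L libraries. Its groups did not overlap, as for 1.31% of tested genes in that direction (log2 difference 0.83, SE 0.26, edgeR adjusted p = 0.593). Il1r1, the interleukin-1 receptor, which passed the filter through its Tau-P301L libraries alone, was at 3.36 ± 1.76 and 6.84 ± 2.81 CPM (SD, n = 4 and 5; log2 difference 1.17, SE 0.62, edgeR adjusted p = 0.789).

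Estimates for textbook targets of NF-kB went in both directions. Of 40 targets 24 were tested, with 15 higher and 9 lower estimates and a median of 0.34. However, 8 of the 24 passed the low-count filter through their level in Tau-P301L libraries alone and 1 through wild-type libraries alone. This fixes part of that split. Of all 12250 tested genes, 1129 passed through Tau-P301L libraries alone and 533 through wild-type libraries alone. Among the 13 targets whose mean over all libraries was at least 10 CPM, 6 were higher and 7 lower with a median of -0.02, beside 0.01 for the 7753 tested genes at such levels. The 11 targets below that mean had 9 higher and 2 lower estimates, with a median of 1.38. Among the 4497 tested genes below it, 2193 were higher and 2304 lower, with a median of -0.02. Unadjusted p values under 0.05 belonged to 5 targets, all higher, where 3.57% of all tested genes were higher at that level, and 2 of the 5, Ccl4 and Cfb, were among those that passed through Tau-P301L libraries alone. The list was drawn up with earlier results of these data known, so it is not independent evidence of its direction.

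Csf1, a growth factor of microglia, stood at 22.4, 28.0, 10.3 and 18.0 CPM in wild-type and at 34.0, 70.7, 37.2, 54.7 and 41.9 CPM in Tau-P301L libraries (log2 difference 1.37, SE 0.36, edgeR adjusted p = 0.505). Cd83, which marks activated dendritic cells and macrophages, stood at 19.6, 14.7, 10.3 and 16.6 against 52.4, 37.1, 26.5, 39.8 and 27.2 CPM (1.29, SE 0.35, edgeR adjusted p = 0.505). The 5 Tau-P301L values of either gene exceeded its highest wild-type value, where 1.31% of all tested genes were separated in that direction. Those of Cfb did so too, but Cfb was tested only because of its level in Tau-P301L, so its separation is no support for a difference. DESeq2 called Csf1 (adjusted p = 0.0424) and not Cd83 (adjusted p = 0.0511).

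The chemokine Ccl3 was at 7.14 ± 4.50 and 28.5 ± 20.7 CPM (SD, n = 4 and 5; log2 difference 1.83, SE 0.57, edgeR adjusted p = 0.593) and Ccl4 at 1.87 ± 1.36 and 8.05 ± 3.80 CPM (1.97, SE 0.71, edgeR adjusted p = 0.707). Complement factor B, Cfb, was at 1.87 ± 0.741 and 6.52 ± 3.80 CPM (1.71, SE 0.73, edgeR adjusted p = 0.776). Ccl4 had 1 to 13 reads and Cfb 3 to 8 reads per wild-type library, so their differences are imprecise and, given how they passed the filter, no support for a direction. Without both Tau-P301L libraries 3 and 5 the difference of Ccl3 was 1.21. Whether the targets differed from the subunits and inhibitors as groups was not tested.

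Handling of tissue during cell isolation can induce immediate early genes, so a list of them was read beside the NF-kB genes. Of 22 such genes 14 were tested, with 7 higher and 7 lower estimates and a median of 0.12, and 2 had an unadjusted p under 0.05, both higher, where 3.57% of all tested genes were higher at that level. Egr1 had log2 differences of 1.94 (SE 0.59, edgeR adjusted p = 0.593) and Egr2 of 1.95 (SE 0.64, edgeR adjusted p = 0.665), both transcription factors of the early growth response family. Egr1 stood at 83.9 CPM in Tau-P301L library 3 and at 10.5 to 32.5 CPM in the other Tau-P301L libraries. Without library 3 its difference was 1.39. Egr2 passed the filter through its Tau-P301L libraries alone, and its difference was 2.96 without wild-type library 1, which stood above the other wild-type libraries. Summed levels of the 22 genes were 435 to 505 CPM in wild-type and 350 to 637 CPM in Tau-P301L libraries (exact permutation p = 0.460, two-sided). Klf6 and Zfp36, picked here for their level, weigh most in this sum, with wild-type means of 165 and 105 CPM. Egr1 and Egr2, with 6.68 and 4.43 CPM, hardly enter it. The part of immediate early genes in the levels of the NF-kB genes was not tested.

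**Figure D4:**
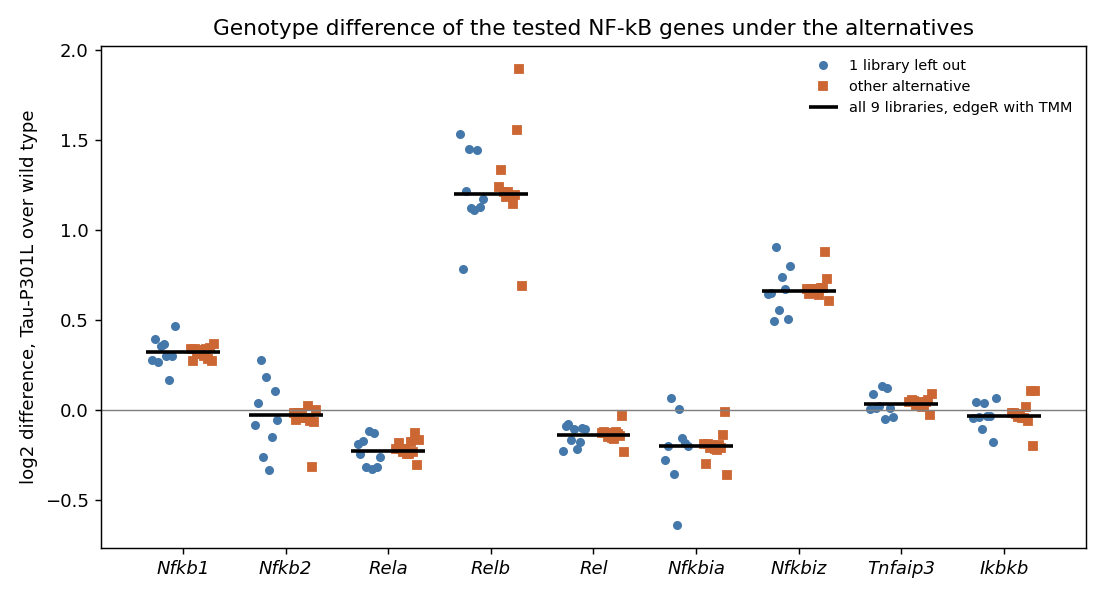
Log2 difference of Tau-P301L over wild type (vertical axis) for the 9 tested NF-kB genes with all libraries (black bars), with 1 library left out (blue circles) and under other tests, scalings, filters, model terms or subsets of libraries (orange squares). Nfkb1, Relb and Nfkbiz stay above 0 and Rela and Rel below 0 at every point, while Nfkb2, Nfkbia, Tnfaip3 and Ikbkb cross it.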

How the data were processed

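RNA-seq of 9 libraries of sorted Cd11b+ cells was used, 1 table per library. Reads were aligned with GSNAP to GRCm38, per the submitters' processing notes; the version and the annotation are not stated there. Per the file headers, the deposited counts hold the uniquely aligned reads of every gene model. The deposited RPKM values carry 1 size factor per library, per the file headers, and equalled count times a gene and a library constant within 1.2e-14. RPKM served to order levels per length. RefSeq (GRCm38.p6) supplied symbols for 31049 of 36528 gene numbers, and positions. Every pair of libraries differed by more than counting noise (smallest chi-square over its degrees of freedom 10.2).

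Genotype was tested with edgeR 4.0.16 (quasi-likelihood, TMM, default low-count filter, which a gene can pass through 1 genotype alone, robust dispersions, labelled sex as a term, 6 residual degrees of freedom), adjusted by Benjamini-Hochberg over 12250 genes at 0.05. The interaction with sex came from a fit with 5 residual degrees of freedom. CPM values use TMM scaling, intervals use the fitted standard error and the moderated degrees of freedom, and log2 CPM for relations has a prior count of 2. Library measures and relations were tested by exact permutation, over 126 splits or all pairings. In simulated data for this comparison (12250 genes) 11.0% of genes made to differ by 1 log2 unit were called, 66.3% at 2 and 88.8% at 3. Alternatives were DESeq2 1.42.0, limma-voom (limma 3.58.1), other scalings, filters and terms, and subsets of libraries.

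The genes and lists were chosen with earlier results of these data known. All 10 were named. From each other list the text names up to 5 genes of unadjusted p under 0.05 (the 2 of smallest p where fewer than 2 qualify), and beside them the microglial markers Cx3cr1, P2ry12 and Tmem119 and Fos.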

Additional observations from a re-analysis of the deposited data

Results flagged for a closer look

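No library stood apart from its group in any of the 10 NF-kB genes, over 20 groups of 4 or 5 libraries checked. Over 84 groups checked in all, including other named genes and library measures, 6 had a highest or lowest library set apart from the rest by Dixon's ratio at 95%, where chance gives about 1 in 20.

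Of these, 3 concern single genes. Egr2 stood at 12.57 CPM in wild-type library 1, the next being 1.938 CPM, and its log2 difference was 2.96 without that library against 1.95 with it. P2ry12 stood at 1030 CPM in wild-type library 3, below 1385 CPM in the nearest other. Fos stood at 3.491 CPM in Tau-P301L library 5, which is 5 reads. The other 3 are sums of marker genes. Oligodendrocyte genes reached 1445 CPM and mural cell genes 20.95 CPM in Tau-P301L library 5, and neutrophil genes 151.4 CPM in Tau-P301L library 4. In library 5 Nfkb1 and Ikbkb had their lowest levels of the 9 libraries, and in library 4 Nfkbiz, Relb and Ikbkb had their highest. These genes were picked after their values were seen. Wild-type library 3, where no marker sum was set apart, held the highest levels of Rel, Nfkb2 and Rela. The part of these marker sums in the levels of the NF-kB genes was not tested.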

How the results depend on the processing

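No setting put an NF-kB gene past the threshold for genotype or for its interaction with sex. Of 188 genotype values of the 9 tested genes under the alternatives 171 kept their direction and 17 turned it. Turned values were 0.024 without the sex term and 0.001 in males alone for Nfkb2, -0.027 in females alone for Tnfaip3, and 0.015 without the sex term, 0.105 without both Tau-P301L libraries 3 and 5 and 0.108 in males alone for Ikbkb. Cx3cr1 turned to 0.21 in males alone, and P2ry12 to -0.072 with limma-voom, -0.20 without both libraries and -0.22 in females alone. With 1 library left out the ranges were -0.34 to 0.28 for Nfkb2, -0.64 to 0.07 for Nfkbia, -0.05 to 0.14 for Tnfaip3, -0.175 to 0.068 for Ikbkb, -0.47 to 0.10 for Cx3cr1 and -0.10 to 0.21 for P2ry12. For the interaction they were -0.21 to 0.39 for Nfkb1, -0.52 to 0.98 for Nfkb2, -0.14 to 0.47 for Rela, -0.99 to 0.81 for Nfkbia, -0.54 to 0.41 for Nfkbiz, -0.13 to 0.39 for Tnfaip3 and -5.89 to 1.32 for Bcl3; a lone library in such a fit is assumed to vary like the others. The r of Nfkbia with Nfkbiz ranged from -0.44 to 0.10. Over all genes, 1 was called for genotype, but 27 by DESeq2, 26 without a low-count filter, 0 with at least 10 reads in every library, 0 without both Tau-P301L libraries 3 and 5, 0 in females alone, 0 in males alone and 0 to 1 with 1 library left out. For the interaction 0 were called, but 4 by DESeq2, 22 without a filter and 0 to 4 with 1 library left out. Bcl3 gave no value where the filter removed it, and the 3 relations with Fos were not run. No paired analysis was possible because the labels number no replicates and name no shared litter, batch or day; the numbers used here follow the order of deposit. Of the 10 genes, Relb (0 to 16 reads per library) and Bcl3 (0 to 17) rest on the fewest reads. The split of the targets at a mean of 10 CPM was chosen after seeing the data, and moved their median from 0.34 to -0.02.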

Other observations

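Of 40 textbook NF-kB targets 16 were too low to test, beside 24278 of all 36528 gene numbers. In the other lists these were 8 of 22 immediate early genes, 3 of 26 receptors, 3 of 28 kinases and adaptors and 1 of 21 inhibitors and brakes. Whether the share differed between the lists was not tested. Some of the 16 were barely present in these cells. The following were picked after their values were seen. The neutrophil chemokines Cxcl1 and Cxcl2 had 3 and 1 reads over all 9 libraries, Nos2, the inducible nitric oxide synthase, had 2, and Ptgs2, the inducible cyclooxygenase, had 9. Il10, Gadd45b and Saa3 had 0, which allows up to 0.122 CPM over the 24487843 reads. By contrast Il1a, an interleukin-1 gene, stood at 135 CPM in wild-type and 172 CPM in Tau-P301L libraries on average, and the inflammasome sensor Nlrp3 at 83.3 and 78.9 CPM (log2 differences 0.34 and -0.05, edgeR adjusted p = 0.835 and 0.981).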
